A study of Mus musculus with 6 samples.

Results

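The complement system was followed here through 9 of the 55471 gene IDs measured in mouse haematopoietic stem cells: the components C4b, C4a, C2, C3 and Cfb, the membrane regulators Cr1l, Cd55 and Cd59a, and the receptor C3ar1. They were picked by gene symbol. The set was chosen on the measured induced and uninduced values themselves, so every difference between the groups in these 9 genes is a description and carries no test. RNA was measured by stranded total RNA sequencing of cells sorted as Lin- Kit+ Sca1+ CD48- CD150+ from mice with an inducible ETV6-RUNX1 transgene, a fusion of transcription factor genes known from childhood B-cell precursor leukaemia. All 6 libraries carry the ETV6-RUNX1 genotype. The uninduced group (n = 3) received no doxycycline, and the induced group (n = 3) received doxycycline in food for 2 weeks. No library with doxycycline and no fusion was analysed here, so the drug and the fusion cannot be told apart. The promoter that drives the transgene, the strain, the sex and the age of the mice, and whether each library is a separate animal, are not given in the sources used here. All 8 stem cell markers examined, among them Kit, Ly6a (Sca-1) and Slamf1 (CD150), were above 0 in all 6 libraries.

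Complement is a cascade of proteases and adhesive fragments in plasma and on cell surfaces. In the classical and lectin pathways, C4 and C2 are cut to build the convertase that cleaves C3; in the alternative pathway, Cfb takes the place of C2. Host cells keep the cascade off their own surface with regulators that dismantle convertases or block the membrane attack complex. Most plasma complement is made by the liver, and many other cells, macrophages among them, make individual components.

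The gene pair at the centre of the data, C4b and C4a, arose by duplication and is nearly identical in sequence, so the letters show what a short read could tell apart. C4b lies at chr17:34728380-34743882 on the minus strand of GRCm38, and C4a at chr17:34809092-34823464 on the same strand, 65.2 kb away. C4a, also called Slp for sex-limited protein, is typed as a long noncoding RNA in the deposited table and as a processed transcript in GENCODE M21. The transcripts C4b-201 and C4a-207 aligned over 5367 bases, of which 207 differed (96.1% identity). Their longest identical run was 433 bases. Windows of 90 bases were compared where they had no gap, lay inside a single exon of each transcript and fell within the coding span of C4b. Of these, the window with the most differences held 14. It lay in exon 21 of 41 of each transcript, at chr17:34735430-34735519 for C4b and chr17:34816086-34816175 for C4a. Read 5′ to 3′ on the minus strand, with the differing bases in capitals, the windows are:
C4b: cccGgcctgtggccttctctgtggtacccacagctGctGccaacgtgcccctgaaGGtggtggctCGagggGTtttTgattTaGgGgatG
C4a: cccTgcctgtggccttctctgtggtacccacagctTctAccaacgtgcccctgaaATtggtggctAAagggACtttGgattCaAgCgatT
Reads were paired and 100 bases long. Of the 5280 words of 100 bases in C4b-201, 871 (16.5%) also occur in C4a. A read from such a word fits both genes unless its mate tells them apart, so small values of C4a are uncertain where C4b is high.

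The values are TPM, in which reads are divided by gene length and scaled to the library total, so levels of different genes can be set side by side, but TPM keeps no sequencing depth and no counting error or detection floor can be given. A gene at 0 is therefore described only as listed at 0. Differences are given as induced minus uninduced on the log2(TPM + 1) scale, which understates the change of low genes, with the standard error (SE) of the limma fit. The 13470 genes whose mean over the 6 libraries reached 1 TPM were tested, and a gene was called at an adjusted p under 0.05 (limma, Benjamini-Hochberg). The median tested gene differed by -0.35. Nuclear protein-coding genes, without the mitochondrially encoded ones, held 26.6% to 32.9% of the TPM in uninduced but 20.5% to 23.2% in induced libraries. A small fall is thus close to the typical gene. Median-of-ratios scaling, which sets the typical gene to no change, is given where it alters a result. Because these are bulk samples, fewer cells of a type and less RNA per cell cannot be told apart.

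C4b, which encodes the complement C4 protein that is cut into C4a and C4b fragments, was the member with the strongest contrast. It was listed at 0 TPM in uninduced libraries 1, 2 and 3, and stood at 30.7, 26.1 and 27.4 TPM in induced libraries 1, 2 and 3. The groups were far apart, and the induced libraries were close to each other, with a mean of 28.1 ± 2.36 TPM (SD, n = 3). That induced level was above that of 84.9% of the tested genes. No fold change can be formed against a group listed at 0. The fitted difference was 4.86 ± 0.31 (SE) with a pseudocount of 1, and it moved with the pseudocount, to 8.13 at 0.1 and 2.72 at 5, so it is no measure of size by itself. With a pseudocount of 1 it ranked 4 of all 13470 tested genes and 1 of the 10575 protein-coding ones.

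Few genes shared that on and off pattern. C4b was the 1 gene of 55471 listed at 0 in every uninduced library and at 10 TPM or more in every induced library, and 0 genes had the reverse pattern. At 5 TPM or more the pattern held for 3 genes and its reverse for 1. At 1 TPM or more these numbers were 16 and 10. The thresholds were chosen after the values were seen.

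C4a was low throughout. It was listed at 0 in uninduced libraries 1 and 2 and at 0.140 TPM in the third, against 0.772, 1.56 and 0.766 TPM in the induced libraries. The groups did not overlap, yet its mean of 0.54 TPM over all libraries was below the 1 TPM filter, so it was not tested. Its highest value was in induced library 2, where C4b was lowest. Summed, C4b and C4a stood at 0, 0 and 0.140 TPM in uninduced cells and at 31.5, 27.7 and 28.2 TPM in induced cells, so the contrast of the pair does not depend on how shared reads were split between them.

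**Figure D1:**
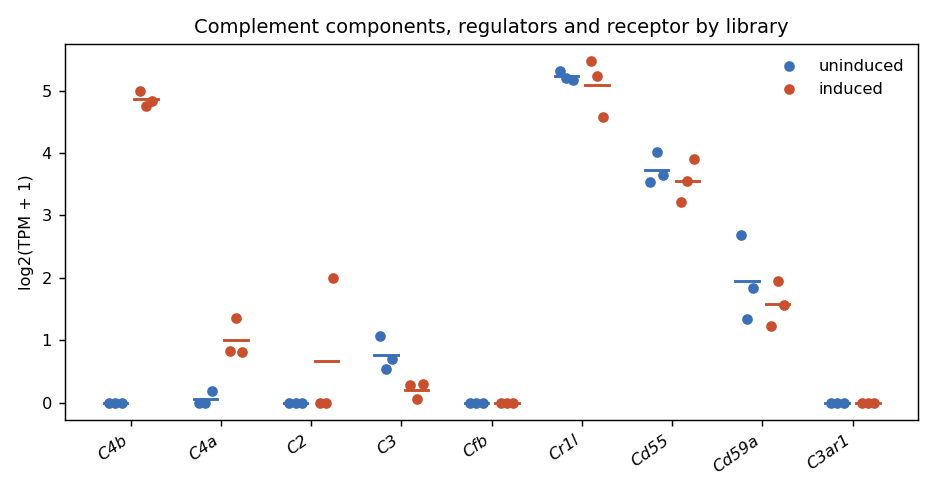
Level of the 9 complement genes on a log2(TPM + 1) axis, with a point per library (3 uninduced in blue, 3 induced in red) and a bar at each group's mean. C4b is at 0 in all uninduced libraries and between 26.1 and 30.7 TPM in the induced ones, while Cr1l, Cd55 and Cd59a overlap between the groups and Cfb and C3ar1 are at 0 throughout.

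The partners of C4 in the cascade did not share its pattern. C2, the protease that joins C4 in the classical convertase (chr17:34862604-34898265, minus strand), was listed at 0 in 5 libraries and at 3.01 TPM in induced library 3. Its value thus rests on a single library. Of the 100-base words of transcript C2-201, 53.2% also occur in Gm20547, a gene model that overlaps C2 and Cfb on the same strand and was listed at 0 in all 6 libraries. The C2 gene body also spans Zbtb12 on the opposite strand, and whether strand was used in quantification is not given in the sources used here. Cfb, the corresponding protease of the alternative pathway (chr17:34856374-34862518, minus strand), was listed at 0 in all 6 libraries, and 81.0% of its words are shared with Gm20547. No TPM was thus assigned to Gm20547 in place of C2 or Cfb.

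C3, the central protein on which all pathways converge (chr17:57203970-57228136, minus strand), was low and went the other way. It stood at 1.10, 0.455 and 0.630 TPM in uninduced and 0.218, 0.0404 and 0.230 TPM in induced libraries 1, 2 and 3. The groups did not overlap, with all 3 induced libraries below the lowest uninduced one, and none of its 100-base words occurs in another gene. The difference was -0.56 on the log2(TPM + 1) scale. Its mean of 0.445 TPM was below the filter, and the number of reads behind it is unknown. C3ar1, the receptor for the C3a fragment (chr6:122847138-122856161, minus strand), was listed at 0 in all 6 libraries.

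The membrane regulators carried most of the complement signal in uninduced cells, and their levels overlapped between the groups. Cr1l, which encodes Crry, a rodent protein that inactivates C3b and C4b on the cell's own membrane (chr1:195097382-195131586, minus strand), was the highest member. It stood at 38.8, 35.7 and 34.9 TPM in uninduced and 43.4, 36.8 and 22.7 TPM in induced libraries 1, 2 and 3. Induced library 1 was the highest of all 6 and induced library 3 the lowest, so the induced libraries spanned the uninduced ones. The difference was -0.13 ± 0.25 (SE). It was 0.27 under median-of-ratios scaling, and 0.13 without induced library 3. Of its words, 7.51% also occur in the pseudogene Crry-ps, which ranged from 2.15 to 8.12 TPM.

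Cd55, the decay-accelerating factor that splits C3 convertases (chr1:130439027-130462744, minus strand), stood at 10.6, 15.2 and 11.6 TPM in uninduced and 8.31, 10.8 and 13.96 TPM in induced libraries. The groups overlapped. The difference was -0.17 ± 0.28 (SE), and 0.20 under median-of-ratios scaling. Cd59a, which blocks assembly of the membrane attack complex at its last step (chr2:104095801-104115354, plus strand), was the lowest of the 3 regulators. It stood at 5.47, 1.53 and 2.59 TPM in uninduced and 1.34, 2.85 and 1.96 TPM in induced libraries, and the groups overlapped. Its difference of -0.38 ± 0.46 (SE) was near that of the median gene and was -0.01 without uninduced library 1, which alone exceeded 3 TPM. The order of the levels in the uninduced cells was Cr1l, Cd55, Cd59a, C3, with no overlap between neighbours in that order. In the induced cells Cr1l and C4b overlapped in range and stood above Cd55, which stood above Cd59a; Cd59a and C4a overlapped, and C3 was below both.

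Counted over the 9 members, 4 passed the filter (C4b, Cd55, Cd59a and Cr1l) and 5 did not. Of these 4, C4b was called higher and the other 3 were not called, beside a background of 11.5% of tested genes called in either direction (1.29% higher and 10.2% lower). Under median-of-ratios scaling the background was 5.98%, with 388 genes higher and 418 lower in place of 174 and 1375, and C4b was again the member called. Groups did not overlap for C4b and C4a, higher in induced cells, and for C3, lower. Among the 23013 genes above 0 in some library, 4.05% were apart in the higher and 18.7% in the lower direction. Since the members were chosen on this contrast, nothing is read from these counts. The filter lay between C4a, at a mean of 0.539 TPM, and Cd59a, at 2.62 TPM.

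The makeup of the complement signal differed between the groups. The 9 genes summed to 55.9, 52.9 and 49.8 TPM in the uninduced libraries and to 84.7, 78.1 and 70.1 TPM in the induced ones. Without C4b, the induced sums were 54.0, 52.0 and 42.7 TPM and overlapped the uninduced ones. Cr1l made up 67.6% to 70.0% of the sum in uninduced and 32.5% to 51.2% in induced libraries. C4b made up 33.4% to 39.1% in induced libraries and 0% in uninduced ones.

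The rest of the complement system was examined with a list of 53 other genes from all its pathways. In 31 of them every library was listed at 0, including 6 of 8 genes of the lectin pathway, 5 of 7 of the terminal pathway and 10 of 11 soluble regulators. The filter was passed by 9 genes, of which 0 were called higher, 3 were called lower (C1qbp, Clu and Calr) and 6 were not called, beside 1.29% of all tested genes called higher and 10.2% called lower. The median difference of the 9 was -0.43, beside -0.35 for all tested genes. Under median-of-ratios scaling the median was -0.04 and only C1qbp was called, beside 5.98% of all tested genes called in either direction.

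The 3 that fell were a regulator and proteins that bind C1q. C1qbp, a mainly mitochondrial protein that also binds the globular heads of C1q, stood at 76.2, 94.3 and 67.7 TPM in uninduced and 21.9, 24.9 and 35.1 TPM in induced libraries. The groups were well apart. It fell by 1.52 ± 0.23 on the log2(TPM + 1) scale (limma adjusted p = 0.00433), and by 1.12 under median-of-ratios scaling (limma adjusted p = 0.013). Leaving out any library kept its call, with differences from -1.71 to -1.38. Clu, which encodes clusterin, an extracellular chaperone that binds terminal complement complexes, stood at 26.8, 7.57 and 7.12 TPM in uninduced and 2.15, 2.94 and 1.92 TPM in induced libraries. It fell by 1.91 ± 0.48 (limma adjusted p = 0.0312), with uninduced library 1 far above the others. Without that library the difference was -1.33 (limma adjusted p = 0.0772), and without induced library 1, 2 or 3 the limma adjusted p was 0.084, 0.0786 or 0.0811. Under median-of-ratios scaling the difference was -1.58 (limma adjusted p = 0.0917).

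Calr, an endoplasmic reticulum chaperone that is also a C1q receptor at the cell surface, stood at 236.0, 304.8 and 231.8 TPM in uninduced and 178.8, 145.9 and 173.8 TPM in induced libraries. It fell by 0.62 ± 0.16 (limma adjusted p = 0.0387). That call was lost under median-of-ratios scaling, at -0.22 (limma adjusted p = 0.345). It was also lost without uninduced library 1 (limma adjusted p = 0.0637), uninduced library 2 (0.099), induced library 1 (0.0813), induced library 2 (0.14) or induced library 3 (0.0794).

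The start of the classical pathway was low. Of the 3 chains of C1q, the molecule that triggers C4 cleavage, C1qa and C1qc were not called and C1qb was not tested. C1qa was at 0, 0 and 0.458 TPM in uninduced libraries against 5.01, 0.252 and 0.846 TPM, with overlap and its top value in induced library 1, and differed by 1.08 ± 0.63 (limma adjusted p = 0.301). C1qc was at 1.61, 0.608 and 1.17 TPM against 1.53, 1.33 and 2.73 TPM, with overlap on deposited TPM and none under median-of-ratios scaling, and differed by 0.42 ± 0.44 (limma adjusted p = 0.571). C1qb, listed at 0 in every uninduced library against 0.734, 0.489 and 1.24 TPM after induction, was below the filter. The chains summed to 0.608 to 1.63 TPM in uninduced and 2.07 to 7.27 TPM in induced libraries, higher without overlap on both scalings, but this sum was not tested. C1ra, the protease that activates C1s, stood at 6.71, 4.53 and 6.22 TPM in uninduced and 3.32, 5.58 and 10.05 TPM in induced libraries, with a difference of 0.01 ± 0.39 (limma adjusted p = 0.992). Properdin (Cfp), which stabilises the alternative convertase, varied from 0 to 4.78 TPM within the uninduced and from 0 to 5.50 TPM within the induced group. It differed by 0.25 ± 0.81 (limma adjusted p = 0.871). Of the receptors, Itgb2, the shared chain of complement receptors 3 and 4, differed by -0.58 ± 0.32 (limma adjusted p = 0.269). Cd93, a surface protein first described as a C1q receptor, differed by -0.43 ± 0.21 (limma adjusted p = 0.202). Under median-of-ratios scaling Itgb2 differed by -0.21 (limma adjusted p = 0.749) and Cd93 by -0.04 (limma adjusted p = 0.925). The groups of Cd93 were apart on deposited TPM and overlapped under that scaling.

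**Figure D2:**
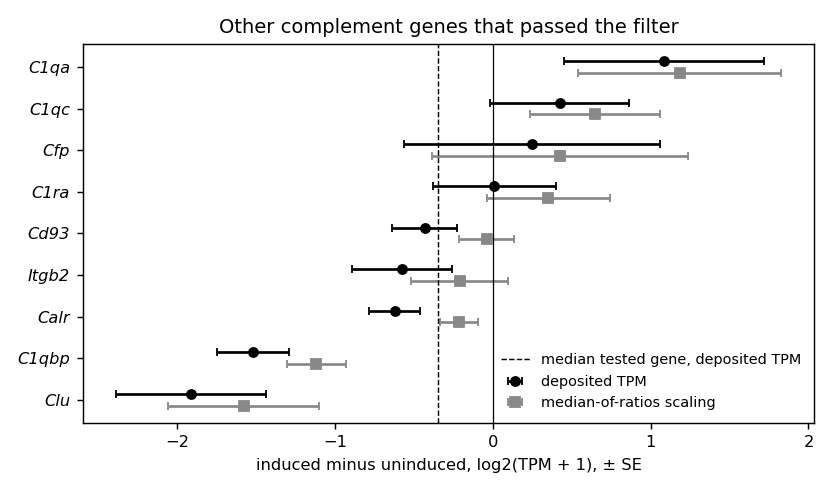
Difference between induced and uninduced libraries (log2(TPM + 1), point ± SE) for the 9 other complement genes that passed the filter, on deposited TPM (black circles) and after median-of-ratios scaling (grey squares). The dashed line is the median tested gene at -0.35; C1qbp and Clu lie far to its left, while C1qa, C1qc, Cfp and C1ra lie to its right with wide errors.

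C4b, C4a, C2 and Cfb lie together in the class III region of the major histocompatibility complex, so their neighbours were examined next. The 26 neighbours listed lie from 139.9 kb on the lower-coordinate side of C4b to 257.1 kb on the other side (chr17:34564268-35016322, GRCm38). Nearest to C4b, the pseudogenes Stk19-ps1 (0.9 kb away) and Cyp21a2-ps (6.1 kb), named after their values were seen, were listed at 0 in all 6 libraries. Tnxb, an extracellular matrix gene 8.6 kb away, was at 0.172 TPM in uninduced library 1 and listed at 0 in the other 5. Cyp21a1, the steroid 21-hydroxylase gene between C4b and C4a, was listed at 0 throughout. The genes that flank C4b were thus at or near 0 in the induced libraries, where C4b was not.

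Of the 26 neighbours, 16 passed the filter, of which 0 were called higher, 2 lower (Atf6b and Zbtb12) and 14 were not called, a share close to the 10.2% of all tested genes called lower. Their median difference was -0.46, beside -0.35 for all tested genes. Atf6b, a membrane-bound transcription factor of the unfolded protein response, stood at 22.5, 24.3 and 21.1 TPM in uninduced and 10.2, 13.1 and 13.3 TPM in induced libraries, and fell by 0.85 ± 0.23 (limma adjusted p = 0.0422). Zbtb12, a zinc finger gene inside the span of C2, stood at 19.5, 21.8 and 19.4 TPM against 11.1, 4.85 and 8.08 TPM, and fell by 1.30 ± 0.30 (limma adjusted p = 0.0245). Groups did not overlap for either. Neither call held under median-of-ratios scaling, where Atf6b differed by -0.46 (limma adjusted p = 0.24) and Zbtb12 by -0.93 (limma adjusted p = 0.0934). The call of Atf6b was lost without any single library (limma adjusted p from 0.0643 without uninduced library 3 to 0.133 without induced library 1). That of Zbtb12 was lost without any library but induced 1 (limma adjusted p of 0.0652, 0.0744 and 0.0521 without uninduced libraries 1, 2 and 3, and of 0.0794 and 0.0577 without induced libraries 2 and 3).

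The neighbours that were not called ranged from -0.78 for Skiv2l, an RNA helicase of the exosome's cofactor complex, to 0.60 for Fkbpl, a co-chaperone-like protein (limma adjusted p = 0.184 and 0.343). Gpsm3, a G-protein modulator of leukocytes, differed by -0.74 (limma adjusted p = 0.0518), Ppt2, a lysosomal thioesterase, by -0.62, Pbx2, a Hox cofactor, by -0.61, Lsm2, an RNA-binding ring subunit, by -0.49, and Vars, the valyl-tRNA synthetase, by -0.46. The ubiquitin ligase Rnf5 differed by -0.46, Nelfe, a subunit of the negative elongation factor that pauses RNA polymerase II, by -0.45, the acyltransferase Agpat1 by -0.39, and the histone methyltransferase Ehmt2 (G9a) by -0.36. Stk19, beside C4a, differed by -0.10, the decapping enzyme Dxo by 0.08, and the sialidase Neu1 by 0.30. Under median-of-ratios scaling the sign turned for Stk19 (0.27), Ehmt2 (0.04) and Agpat1 (0.01).

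**Figure D3:**
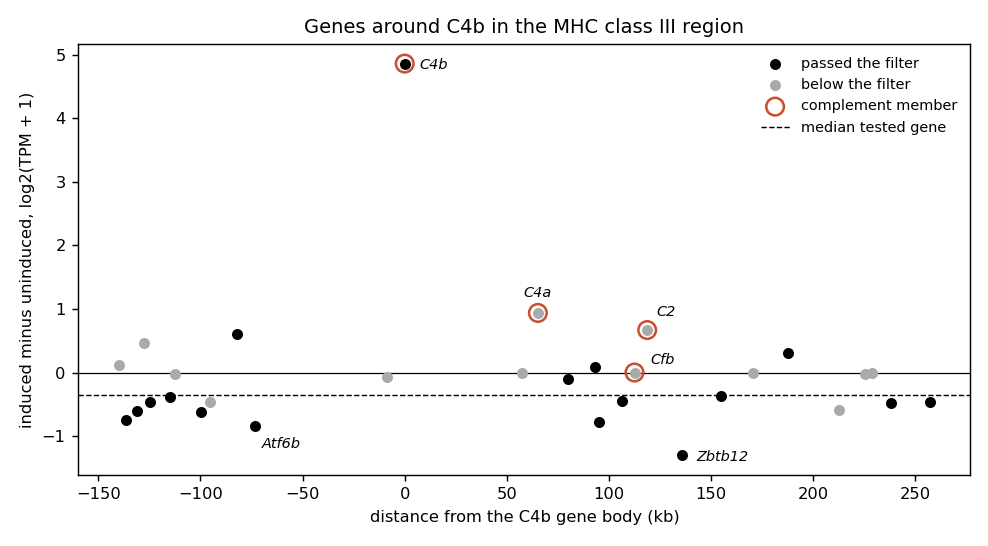
Difference between induced and uninduced libraries (log2(TPM + 1)) for C4b, C4a, C2, Cfb (ringed) and their 26 neighbours against the distance in kb from the C4b gene body, lower coordinates to the left. C4b stands at 4.86, while the neighbours that passed the filter (black) lie between -1.30 and 0.60 around the median tested gene (dashed, -0.35).

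The protein-coding genes with profiles most like that of C4b lay elsewhere in the genome. Likeness was Pearson's r of log2(TPM + 1) over the 6 libraries, given as a description, since any gene that is low in one group and even in the other scores high. Of the genes that passed the filter, 78 had an r above 0.95. The closest was Gm27029 on chromosome 11 (r = 0.9996), listed at 0 in all 3 uninduced libraries, against 5.40, 5.08 and 5.57 TPM in the induced ones. Slc4a1, the band 3 anion exchanger of red cells on chromosome 11 (r = 0.998), stood at 2.09, 1.94 and 2.34 against 15.0, 13.5 and 12.8 TPM. Mtmr9, a catalytically inactive myotubularin on chromosome 14 (r = 0.998), stood at 8.76, 9.65 and 8.22 against 93.2, 89.0 and 105.5 TPM. Tspan7, a tetraspanin on chromosome X (r = 0.998), was at 0.0595, 0 and 0 against 18.1, 14.3 and 11.8 TPM. Skint3, a gene of the Skint immunoglobulin family on chromosome 4 (r = 0.998), was at 0.269, 0.543 and 0.191 against 22.7, 21.7 and 26.1 TPM. In each of these 5 genes the groups stood apart, as for C4b, and on the log2 scale Tspan7 varied the most of the 5 among the induced libraries.

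**Figure D4:**
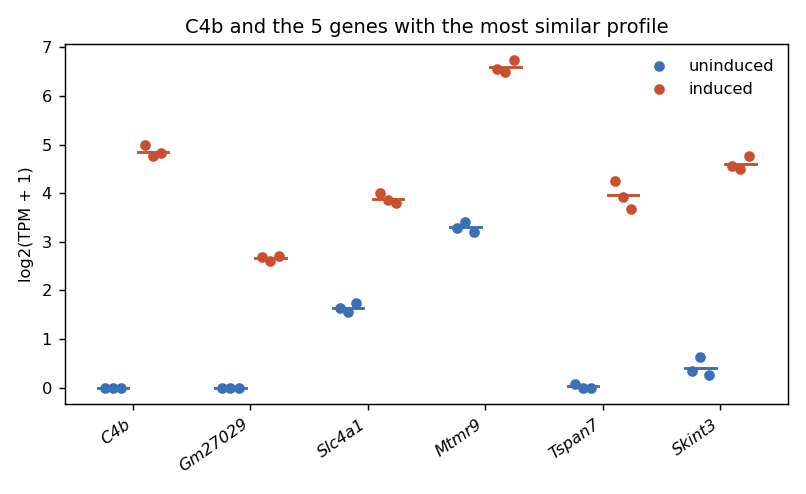
Level of C4b and of the 5 protein-coding genes with the highest Pearson's r to it over the 6 libraries, on a log2(TPM + 1) axis, a point per library and a bar at each group's mean (3 uninduced in blue, 3 induced in red). All 6 genes are higher in every induced library than in any uninduced one; Mtmr9 reaches 105.5 TPM, and Gm27029 reaches 5.57 TPM.

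Cd59a, the tested member with the lowest difference, had 14 genes with an r above 0.95, led by Rdh10, a retinol dehydrogenase (r = 0.991). Rdh10 stood at 7.02, 1.42 and 2.88 TPM in uninduced and 1.43, 2.98 and 2.38 TPM in induced libraries. The next were Stambpl1 (r = 0.976), Zfyve21 (r = 0.971), Tnfsf9 (r = 0.965) and Ncln (r = 0.962). All 5 were highest in uninduced library 1, the library in which Cd59a was highest, so this likeness follows 1 library and not the groups.

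Because complement genes are also made by other blood and stromal cells, marker lists of those cells were summed in each library. The macrophage list (12 genes) summed to 81.7 to 130.5 TPM in uninduced and 132.8 to 149.5 TPM in induced libraries, nearly all of it Lyz2, a lysozyme gene also active in other myeloid cells. Only Cd68 and Lyz2 of that list passed the filter, and neither was called (limma adjusted p = 0.294 and 0.163), though Lyz2 was called higher under median-of-ratios scaling (limma adjusted p = 0.013). The sums also stood apart under that scaling. Cd68, a lysosomal protein of phagocytes, had a mean of 2.88 TPM in uninduced and 7.48 TPM in induced libraries, with overlap. The other 10 genes were below the filter. Spic, a transcription factor of red pulp macrophages, was at 0.644, 0.227 and 0.200 TPM against 2.41, 0.705 and 1.68 TPM, without overlap, and Csf1r, the receptor that supports macrophage growth, was at 0, 0.480 and 0.114 against 0.348, 0.634 and 0.511 TPM, with overlap on deposited TPM and none under median-of-ratios scaling. Adgre1 (F4/80) was at 1.54 TPM in uninduced library 2, at 0.391 TPM in induced library 2 and listed at 0 in the other 4. Mrc1 (mean 0.741 against 0.681 TPM), Mertk (0.216 against 0.124 TPM) and Cd163 (0.120 against 0.0612 TPM) were lower in induced libraries, with overlap. Vcam1 had a higher mean in induced libraries (0.619 against 1.01 TPM), with overlap. Timd4 was at 0.508 TPM in induced library 1 and listed at 0 in the other 5. Marco and Siglec1 were listed at 0 in all 6 libraries. The part of this list in the C4b difference was not tested.

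The erythroid list (8 genes) summed to 54.1 to 60.4 TPM in uninduced and 397.5 to 462.1 TPM in induced libraries. Of its 7 genes that passed the filter, 5 were called higher, the globins Hba-a1, Hba-a2, Hbb-bs and Hbb-bt with Alas2, beside 1.29% of all tested genes, and 0 were called lower. Klf1 was not called, and neither was Epor, the erythropoietin receptor, which went the other way without overlap, at 3.42, 2.11 and 4.57 TPM against 0, 0 and 1.45 TPM (-1.65, limma adjusted p = 0.0638). The erythroid sum stood apart between the groups, as C4b and the macrophage sum did, and the part of this list in the C4b difference was not tested. The T and NK cell list stood at 5.84 to 17.2 TPM in uninduced against 0.253 to 1.18 TPM in induced libraries, the former mostly Nkg7, which was called lower (-3.23, limma adjusted p = 0.00378), with Cd3e, Cd3g and Cd8a listed at 0 throughout. The B cell list stood at 4.35 to 9.86 against 3.11 to 3.86 TPM, with Cd79a, Ms4a1, Ebf1 and Pax5 listed at 0 throughout. The neutrophil list stood at 209.0 to 235.0 against 151.8 to 174.0 TPM, with 1 of 9 tested members called higher and 1 lower, beside 1.29% and 10.2% of all tested genes. Prtn3, a granule protease, was higher (1.12, limma adjusted p = 0.0114), and Camp, an antimicrobial peptide of granules, was lower (-1.38, limma adjusted p = 0.0283), the latter not called under median-of-ratios scaling (limma adjusted p = 0.103). Under median-of-ratios scaling the groups overlapped for both lists, at 3.69 to 7.89 against 3.84 to 4.42 for B cells and 188.2 to 201.2 against 174.7 to 199.5 for neutrophils. The sums for megakaryocytes and platelets (102.8 to 139.2 against 119.7 to 130.8 TPM) and for stem cells (350.9 to 508.5 against 458.5 to 495.0 TPM) overlapped on deposited TPM, although members of both were called. Of the 6 megakaryocyte and platelet genes tested, 2 were called higher, Ppbp (3.22, limma adjusted p = 0.00343) and Pf4 (1.13, limma adjusted p = 0.0253), and 1 lower, Gp9 (-2.33, limma adjusted p = 0.0187), which was not called under median-of-ratios scaling (limma adjusted p = 0.0625). Of the 8 stem cell genes tested, Procr, Ly6a and Hlf were called higher and Kit lower. Under median-of-ratios scaling Mecom was also called higher and Kit was not called. For both lists, these counts stand beside 1.29% of all tested genes called higher and 10.2% called lower. The share of all tested genes called in either direction under median-of-ratios scaling was 5.98%. The part of these lists in the C4b difference was not tested. Under median-of-ratios scaling both were higher in induced cells without overlap, at 87.2 to 111.4 against 141.4 to 147.8 and 335.7 to 407.1 against 530.6 to 567.4. The endothelial and stromal sums, with Lepr and Col1a1 listed at 0, overlapped on both scales.

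**Figure D5:**
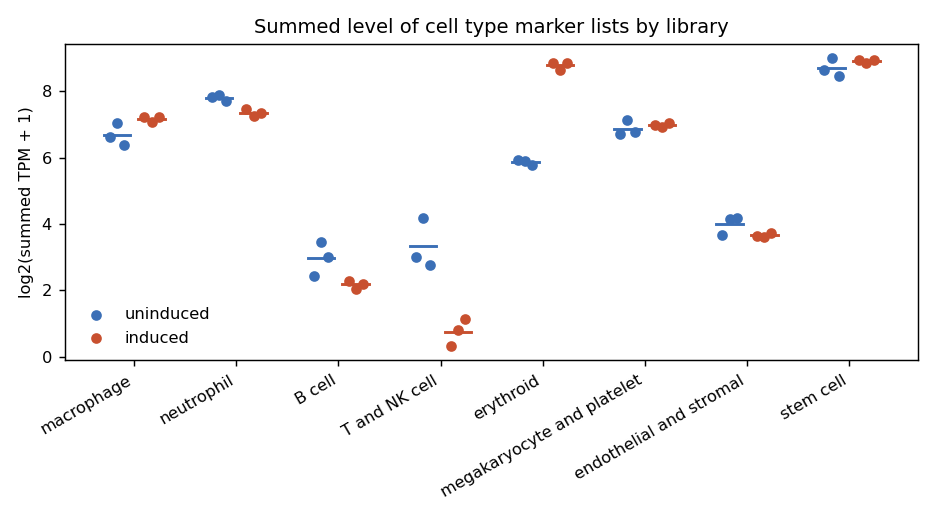
Summed TPM of 8 cell type marker lists on a log2(summed TPM + 1) axis, with a point per library and a bar at each group's mean (3 uninduced in blue, 3 induced in red). The erythroid sum is higher in every induced library (397.5 to 462.1 TPM against 54.1 to 60.4), the T and NK cell sum is lower, and the stem cell sum overlaps on this scale but is higher in induced libraries under median-of-ratios scaling.

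Promoter windows from RefSeq (GRCm38.p6, 250 bases before to 50 after the start) matched 5 of the 9 members, C3, Cd55, Cd59a, Cr1l and C3ar1. Letters known from binding motifs were looked for on both strands. The RUNX letters TGTGGT occurred 2 times in the Cd59a window and in none of the other 4, and 16.8% of 32851 windows hold them. The RUNX letters TGCGGT (in 6.45% of windows), the ETS letters CCGGAA (14.9%), the E-box CACGTG (7.15%) and the STAT letters TTCNNNGAA (8.30%) occurred in none of the 5. The AP-1 letters TGANTCA (7.81%) occurred 1 time, in C3ar1. A match is a description of the letters and not a binding site.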

How the data were processed

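The deposited table holds TPM per gene and library, made by the authors with StringTie per the file headers. Per the submitters' processing notes, bcl2fastq, HISAT2, StringTie and DESeq2 were used with GRCm38. Versions, annotation release and read filters are not given in the sources used here. The table has 60496 rows, of which 5025 repeat a gene ID and were summed. Columns sum to 999976 to 999993 TPM, so depth is unknown. Groups and replicate numbers come from the library titles. Tests were two-sided, with limma 3.58.1 in R 4.3.3 on log2(TPM + 1), empirical Bayes with a variance trend, a mean of at least 1 TPM, and Benjamini-Hochberg adjustment over 13470 genes. The p-values measure only the spread between these libraries, which may be technical. The script was tested on simulated data. Locations are from GENCODE M21, sequences from the GRCm38 genome and transcripts. The members and all lists were chosen with earlier results of these data known. Some genes of the marker lists are not reported here and were left out of the sums. The genes named were all members, each other complement gene or neighbour that passed the filter, and the 5 protein-coding genes most like C4b and like the tested member with the lowest difference. Marker genes, genes sharing sequence with a member, C1qb and the genes nearest C4b were named after their values were seen. Alternatives were pseudocounts of 0.1 and 5, no filter or a filter at 5 TPM, and median-of-ratios, quantile and nuclear protein-coding scaling. Others were the first row of each ID, array weights, no variance trend, a replicate block, and each library left out in turn.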

Additional observations from a re-analysis of the deposited data

How the results depend on the processing

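The difference of C4b, which has no test since the members were chosen on it, ranged from 2.72 to 8.13 over the settings, and from 4.79 to 4.91 without single libraries. The count of genes called, 1549, was 752 without a filter, 806 with median-of-ratios, 814 with quantile and 944 with nuclear protein-coding scaling. It was 767 without a variance trend, and 611 to 1276 without single libraries. Called higher were 96, 388, 374, 465 and 108 genes in the first 5 of these, and 77 to 131 without single libraries; called lower were 656, 418, 440, 479 and 659, and 527 to 1146. The 3 other complement genes called became 1 in each of these 5 settings and 1 to 3 without single libraries. The 2 neighbours became 0 in the same settings and 0 to 1 without single libraries; at a 5 TPM filter they were 3. The cause was not tested.

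Replicate numbers did not pair the libraries: same-numbered deviations correlated at 0.0215, -0.0152 and 0.0172, and uninduced library 2 correlated best with induced library 3, at 0.0224. With the replicate block, 902 genes were called (120 higher, 782 lower), with 2 other complement genes and 1 neighbour among them; Calr (limma adjusted p = 0.0983) and Atf6b (limma adjusted p = 0.0945) were lost.

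Some small differences turned sign. C1ra was -0.005 at a pseudocount of 0.1, -0.048 with array weights, and from -0.341 to 0.337 without single libraries. Without single libraries Cfp ranged from -0.467 to 1.006 and Dxo from -0.226 to 0.273. Under median-of-ratios, quantile and nuclear protein-coding scaling, Stk19 was 0.274, 0.268 and 0.302. In the same order Ehmt2 was 0.038, 0.026 and 0.067, and Agpat1 0.005, 0.004 and 0.034. Cd55 was 0.203, 0.19 and 0.23, and Cr1l 0.265, 0.26 and 0.293. Stk19 ranged from -0.397 to 0.222 without single libraries. TPM keeps no depth, so the precision of the low members C4a, C2 and C3 is unknown.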
